A study of Rattus norvegicus with 52 samples.

Results

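The keratins examined here are those by which the 2 epithelial layers of the mammary gland are told apart. 8 symbols were taken, *Krt5*, *Krt14*, *Krt15* and *Krt17* for the basal layer and *Krt7*, *Krt8*, *Krt18* and *Krt19* for the luminal layer, and 7 of them had a row among the 17356 genes of the count tables. *Krt7* was not analysed here. RNA-seq counts came from 48 libraries of sorted rat mammary cells in 24 groups. At 9 weeks, luminal progenitors (LP), mature luminal cells and basal cells of ACI rats were sorted, the LP either by binding of the lectin peanut agglutinin (PNA+) or by the integrin CD49b (CD49b+), with 2 *Cdkn1b*+/+ (WT) and 2 *Cdkn1b*-/- (KO) libraries for each. At 4 weeks there were 3 WT basal, 3 WT luminal, 2 KO basal and 3 KO luminal libraries, and at 6 weeks 3 WT basal, 2 WT luminal, 2 KO basal and 2 KO luminal libraries, all of ACI rats. In these 3 sets WT and KO rats were females chosen by genotype from crosses of heterozygous rats, and the labels do not name their litters. The KO, present in all cells of the body, came from the germline deletion alleles em1 and em4 of the gene for the cell cycle inhibitor p27. The alleles were made in Sprague-Dawley zygotes and bred onto ACI. The study took glands for sorting from early and later backcross generations, without naming that of each library. In a separate experiment, basal and luminal cells were sorted from ACI rats, which are susceptible to estrogen-induced mammary cancer, and from resistant BN rats, that carried implants with estradiol (E2) or empty ones (control), with 2 libraries per group in ACI and 1 in BN. The titles of the BN libraries carry 2 numbers each, and the labels give neither the age nor the dose in that experiment. Libraries are named by group and replicate number.

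Keratins form the intermediate filaments of epithelial cells. A filament is built from pairs of a type I keratin (*Krt14*, *Krt15*, *Krt17*, *Krt18*, *Krt19*) and a type II keratin (*Krt5*, *Krt7*, *Krt8*), so the genes are used in combinations. *Krt5* and *Krt14* are the classical pair of basal and myoepithelial cells, *Krt15* is found in basal cells of many epithelia, and *Krt17* is a basal keratin that is also induced in stressed or proliferating epithelium. *Krt8* and *Krt18* are the pair of simple and luminal epithelium, and *Krt19* is the smallest keratin and a partner of *Krt8* in luminal cells.

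The promoters that RefSeq gives for *Krt8* and *Krt18*, the partner genes of luminal filaments that lie side by side on one chromosome, are shown beside that of *Krt5*, the basal type II keratin, since these classical markers of the lineages are those compared across libraries below. Each is 300 bases long, from 250 bases before to 50 bases after the annotated start of the gene, on build GRCr8 and on the strand of the gene. These windows were at hand for 3 of the 7 measured keratins. *Krt5* is at chr7:134730520-134730819 (minus strand), *Krt8* at chr7:135010290-135010589 (minus strand) and *Krt18* at chr7:135035918-135036217 (plus strand). Capitals mark matches, on either strand, to 4 motifs that were searched by their letters, the TATA box as TATAA, the GC box as GGGCGG, the CCAAT box as CCAAT and the AP-1 element as TGANTCA.
Krt5: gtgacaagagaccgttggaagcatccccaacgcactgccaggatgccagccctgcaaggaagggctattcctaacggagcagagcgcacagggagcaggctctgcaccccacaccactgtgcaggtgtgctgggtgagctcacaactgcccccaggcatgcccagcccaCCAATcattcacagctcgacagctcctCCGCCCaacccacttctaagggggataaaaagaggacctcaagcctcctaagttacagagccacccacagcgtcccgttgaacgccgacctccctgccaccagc
Krt8: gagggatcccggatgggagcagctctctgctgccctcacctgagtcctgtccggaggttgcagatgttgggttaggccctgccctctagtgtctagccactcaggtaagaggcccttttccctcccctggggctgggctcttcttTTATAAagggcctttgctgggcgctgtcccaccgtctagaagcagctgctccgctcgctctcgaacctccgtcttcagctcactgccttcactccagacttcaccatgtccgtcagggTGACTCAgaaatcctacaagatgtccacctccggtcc
Krt18: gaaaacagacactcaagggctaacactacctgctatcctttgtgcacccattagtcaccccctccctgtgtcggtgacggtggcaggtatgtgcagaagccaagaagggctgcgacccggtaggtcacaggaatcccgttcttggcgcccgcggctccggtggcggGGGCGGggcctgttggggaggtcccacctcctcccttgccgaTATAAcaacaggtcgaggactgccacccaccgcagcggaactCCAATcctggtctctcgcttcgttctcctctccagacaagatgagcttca
The *Krt5* window held the CCAAT box and, on the opposite strand, the GC box. The *Krt8* window held the TATA box, read on both strands in overlapping letters, and the AP-1 element after the start, whose letters read alike on both strands. The *Krt18* window held the TATA box, the GC box and, beginning at the annotated start, the CCAAT box. Among 33469 promoter windows of the same length, 26.2% held the TATA box, 33.1% the GC box, 37.5% the CCAAT box and 7.33% the AP-1 element. These matches describe the letters only.

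Library depth ranged from 7985619 to 33859550 counts on genes, and the 7 keratins together took 0.0479 to 3.16% of them. Levels are given as CPM, the counts of a gene per 1000000 counts on genes in the same library. *Cdkn1b*, the deleted gene, was lower in KO than in WT libraries of every 9-week population, at 1.59 to 4.24 CPM against 6.00 to 18.0 CPM. At 4 and 6 weeks the difference was smaller (KO 4.30 to 30.2 CPM, WT 3.13 to 46.3 CPM). The genotypes were apart in 3 of 4 populations, and in basal cells of 6 weeks the library labelled WT basal replicate 3 (3.13 CPM) lay below both KO libraries. The deletions remove only short stretches of the gene, so its count is a weak check of the labels. Libraries that stand apart are named here because results below rest on them. ACI E2 basal replicate 1 had no count of *Tp63*, a basal transcription factor, and 41.4 CPM of *Epcam*. KO luminal replicate 2 of 6 weeks had summed levels of 1422 CPM for 7 endothelial genes and 3076 CPM for 6 fibroblast genes, against 173 and 117 CPM in KO luminal replicate 1 and at most 8.90 and 33.5 CPM in WT luminal libraries of that age. No 2 libraries of a group were alike within counting error, with a chi-square of at least 45.2 per degree of freedom in 28 pairs. The labels do not say whether libraries of a group came from separate animals, so p-values measure the spread between these libraries.

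At 9 weeks the 4 basal keratins were far higher in basal than in mature luminal cells, and the 3 luminal keratins were lower, but by much less. *Krt5* was at 3200.1 and 2162 CPM in WT and 2092 and 2296 CPM in KO basal libraries, against 27.1 and 15.9 CPM in WT and 22.4 and 12.8 CPM in KO mature luminal libraries. *Krt14*, its filament partner, was at 5877 and 6910.1 CPM in WT and 6775 and 8373 CPM in KO basal libraries, against 63.5 to 228 CPM in the 4 mature luminal libraries. No mature luminal library came near a basal one for either gene. By the quasi-likelihood test of edgeR, with p-values adjusted after Benjamini and Hochberg over 12809 genes, *Krt5* had a log2 fold change of 6.81 ± 0.94 (SE), adjusted p = 9.69e-05, and *Krt14* a log2 fold change of 5.85 ± 0.66 (SE), adjusted p = 2.39e-05. *Krt15* (5.53 ± 0.57) and *Krt17* (6.09 ± 0.77) rose by similar amounts. Thus 4 of the 7 keratins were called higher in basal cells, where 20.4% of all genes were.

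The luminal keratins did not vanish from basal libraries. *Krt8* was at 2891 and 3857 CPM in WT and 3267 and 4179 CPM in KO basal libraries, against 8217 and 12335 CPM in WT and 7538 and 6499 CPM in KO mature luminal libraries (log2 fold change of -1.41 ± 0.27 (SE), adjusted p = 9.61e-04). *Krt18*, the partner of *Krt8*, was at 324 to 804 CPM in the 4 basal and 2696 to 3719.5 CPM in the 4 mature luminal libraries (log2 fold change of -2.72 ± 0.23 (SE), adjusted p = 3.21e-06). *Krt19* was at 619.6 to 798 and 1706 to 2313 CPM (log2 fold change of -1.67 ± 0.21 (SE), adjusted p = 5.93e-05). The groups were apart for all 3 genes, and *Krt18* fell the most. 3 of the 7 keratins were called lower in basal cells, where 18.4% of all genes were, and the median over the 7 was 5.53 on the log2 scale, beside -0.04 over all genes. In sorted bulk cells, fewer cells of a type and less RNA per cell cannot be told apart, here or below.

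**Figure D1:**
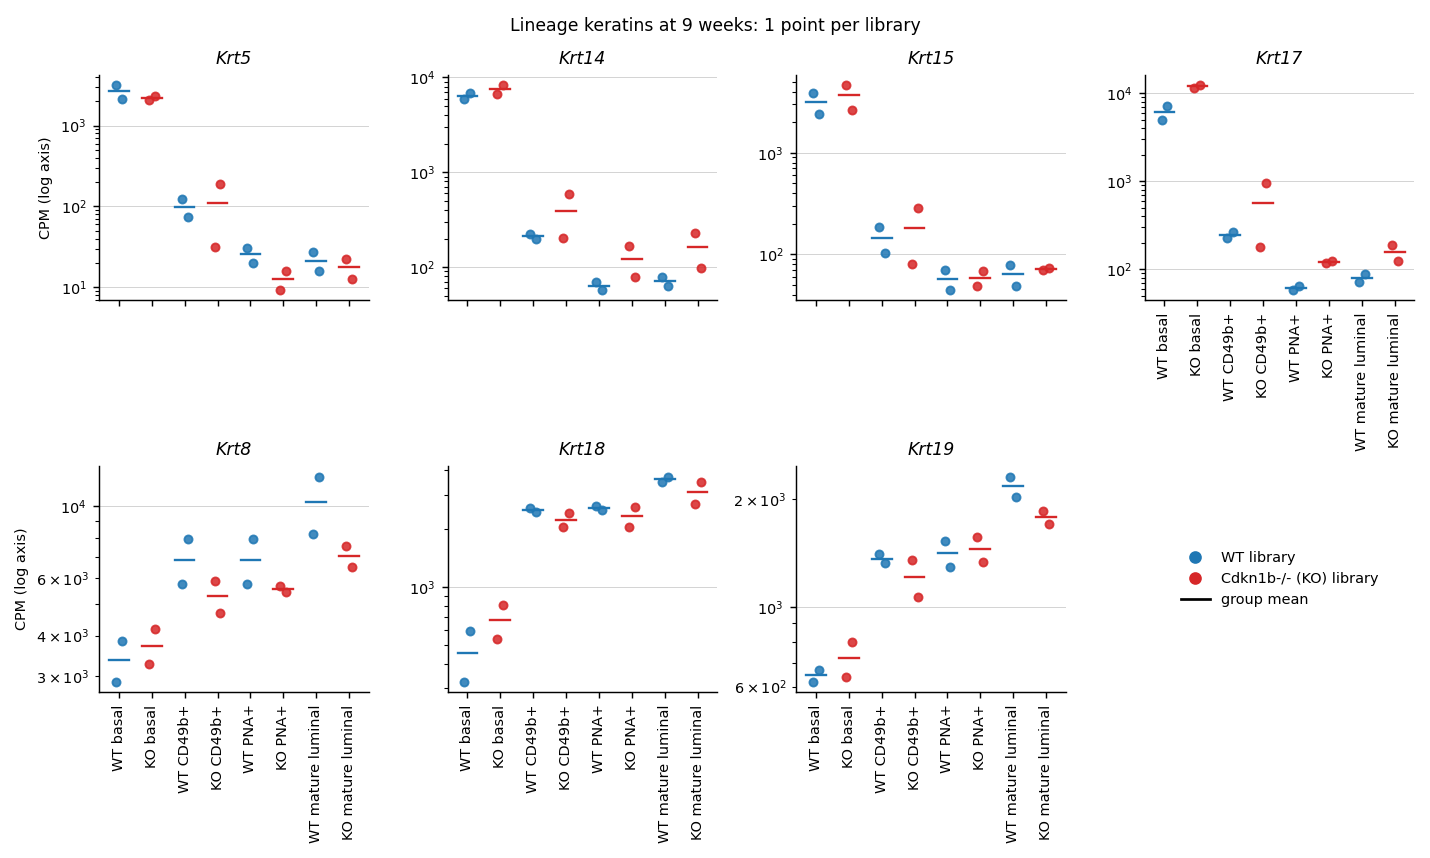
Levels of 7 keratins at 9 weeks in CPM on log axes that differ between panels, with 1 point per library, bars at group means, WT in blue and KO in red. *Krt5*, *Krt14*, *Krt15* and *Krt17* are high in the basal groups and reach at most 955 CPM elsewhere, while *Krt8*, *Krt18* and *Krt19* are lowest in basal cells and highest in mature luminal cells.

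Among luminal cells, LP held less of the luminal keratins than mature luminal cells did. The 8 LP libraries had 4696 to 7941 CPM of *Krt8*, 2028 to 2605 CPM of *Krt18* and 1067 to 1572 CPM of *Krt19*, against 6499 to 12335, 2696 to 3719.5 and 1706 to 2313 CPM in the 4 mature luminal libraries. The ranges overlapped for *Krt8* and did not for *Krt18* and *Krt19*. The test takes the 8 LP libraries as independent, here and between genotypes below. PNA+ and CD49b+ libraries of the same genotype and number were correlated in their deviations from group means (r of 0.931 in WT and 0.698 in KO). *Krt19* had a log2 fold change of -0.68 ± 0.18 (SE), adjusted p = 0.0152, *Krt18* a log2 fold change of -0.64 ± 0.18 (SE), adjusted p = 0.0234, and *Krt8* a log2 fold change of -0.64 ± 0.22 (SE), adjusted p = 0.0495. The call of *Krt8* was at the threshold and was lost in 15 of the 16 fits that left out 1 library, and without WT mature luminal replicate 1 none of the 3 was called, a fit in which the remaining WT mature luminal library is taken to vary like the other groups. 3 of the 7 keratins were called lower in LP (11.7% of all genes) and none higher (11.7% of all genes). The basal keratins were higher in LP by 0.49 to 1.38 on the log2 scale, with adjusted p from 0.152 to 0.419, and the median over the 7 was 0.49, beside -0.07 over all genes.

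Within LP, the CD49b+ libraries held more of the 4 basal keratins than the PNA+ libraries. *Krt5* was at 123 and 73.1 CPM in WT and 31.2 and 188 CPM in KO CD49b+ libraries, and at 31.0 and 20.0 CPM in WT and 9.33 and 15.96 CPM in KO PNA+ libraries. All 4 CD49b+ values lay above all 4 PNA+ values, the closest being 31.2 CPM in a KO CD49b+ and 31.0 CPM in a WT PNA+ library. *Krt17* was at 223 and 268 CPM in WT and 181 and 955 CPM in KO CD49b+ libraries, against 58.1 and 64.3 CPM in WT and 118 and 123 CPM in KO PNA+ libraries, again with no overlap. In a fit of the 8 LP libraries, PNA+ against CD49b+ cells had log2 fold changes of -2.40 ± 0.51 (SE) for *Krt5*, -1.99 ± 0.40 for *Krt17*, -1.58 ± 0.35 for *Krt14* and -1.36 ± 0.34 for *Krt15*. Unadjusted p in edgeR was 0.00114 to 0.00417 for these 4, but the adjusted p was 1.00 for each, and 0% of the 11308 genes were called (329 had an unadjusted p under 0.05). DESeq2 called 45 genes, among them *Krt5*, *Krt14* and *Krt17*. *Krt8*, *Krt18* and *Krt19* differed by 0.11 to 0.23, and the median over the 7 was -1.36, beside -0.01 over all genes.

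Other basal genes moved with the basal keratins here. 8 basal genes that are no keratins, *Acta2*, *Myh11*, *Mylk*, *Cnn1*, *Tagln*, *Oxtr*, *Tp63* and *Cdh3*, summed to 713 to 789 CPM in WT and 247 to 2076 CPM in KO CD49b+ libraries, and to 306 to 364 CPM in WT and 89.6 to 246 CPM in KO PNA+ libraries, with none of the 8 at 0. The sums of the sorts were apart within WT libraries, and within KO libraries only by 247 against 246 CPM. The lower KO CD49b+ sum lay below both WT PNA+ sums. *Myh11*, a smooth muscle myosin of myoepithelial cells, was at 231, 291, 78.9 and 822 CPM in the CD49b+ libraries, and at 101, 155, 21.1 and 103 CPM in the PNA+ libraries, in the order WT 1, WT 2, KO 1 and KO 2 for both. The 7 endothelial genes summed to 523 to 675 CPM in WT and 187 to 796 CPM in KO CD49b+ libraries, and to 356 to 647 and 91.5 to 213 CPM in WT and KO PNA+ libraries. KO CD49b+ replicate 2 was the highest of the LP libraries for all 4 basal keratins, for *Myh11* and for the endothelial sum. The part of basal or endothelial cells in these differences was not tested.

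The keratins separated the lineages in younger rats too. At 4 weeks *Krt5* was at 1331, 1434 and 1152 CPM in WT and 915 and 1537 CPM in KO basal libraries, against 2.56 to 10.3 CPM in the 6 luminal libraries (log2 fold change of 7.47 ± 0.38 (SE), adjusted p = 6.07e-08). *Krt14* was at 3597 to 5033 CPM in the 5 basal and 21.1 to 39.7 CPM in the 6 luminal libraries (log2 fold change of 7.25 ± 0.36 (SE), adjusted p = 5.30e-08). The lineages were far apart for both genes. *Krt15* (5.99 ± 0.36) and *Krt17* (4.48 ± 0.35) were also higher in basal cells. *Krt18* was at 3119.7 to 7968 CPM in luminal and 180.2 to 402 CPM in basal libraries (log2 fold change of -4.17 ± 0.44 (SE), adjusted p = 8.79e-06), a wider gap than for *Krt8* (-1.81 ± 0.29) or *Krt19* (-1.75 ± 0.33). All 7 were called, 4 higher in basal cells (20.3% of all 12082 genes) and 3 lower (14.8%), with a median of 4.48, beside -0.01 over all genes.

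At 6 weeks the 4 basal keratins were again called higher in basal cells (3.49% of all 11921 genes), with log2 fold changes of 6.73 ± 0.52 for *Krt5*, 6.21 ± 0.56 for *Krt14*, 4.63 ± 0.46 for *Krt15* and 3.63 ± 0.65 for *Krt17*. The call of *Krt17* was lost without WT luminal replicate 1 or 2, at adjusted p of 0.0560 and 0.0652. *Krt18* (-3.99 ± 0.33) and *Krt19* (-2.93 ± 0.31) were called lower (2.16% of all genes). *Krt8* was at 2291 to 3438 CPM in basal and 1849 to 6391 CPM in luminal libraries and was not called (adjusted p = 0.183). Its luminal range reached that low through KO luminal replicate 2 alone, the library with endothelial and fibroblast genes, since the other 3 luminal libraries had at least 4633 CPM. Without that library its adjusted p was 0.0720. The median over the 7 was 3.63, beside 0.08 over all genes.

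The members of a lineage did not keep a fixed ratio. Counts of *Krt18* over counts of *Krt8*, which can be compared between libraries although not read as a molar ratio, were 0.565 to 0.949 in luminal libraries of 4 weeks and 0.564 to 0.886 at 6 weeks. At 9 weeks they were 0.302 to 0.533 in mature luminal cells and 0.309 to 0.514 in LP, so no 9-week luminal library reached the lowest value of the younger ones. Basal libraries lay lower throughout, at 0.0824 to 0.201, 0.0501 to 0.0921 and 0.112 to 0.192 at 4, 6 and 9 weeks. Age and experiment cannot be told apart between the 9-week and the younger libraries.

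In the E2 experiment the basal libraries differed widely among themselves, and no lineage difference of a keratin was called by edgeR. *Krt18* was at 217 and 43.6 CPM in ACI control, 0.578 and 291 CPM in ACI E2, 18.9 CPM in BN control and 103 CPM in BN E2 basal cells, against 798 to 6348 CPM in the 6 luminal libraries. Although these ranges were apart, the adjusted p was 0.0507 (log2 fold change of -4.74 ± 1.08). *Krt14* was at 56.3 to 4701 CPM in basal and 20.9 to 329 CPM in luminal libraries (log2 fold change of 4.32 ± 0.99 (SE), adjusted p = 0.0527). The lowest basal value, in ACI E2 basal replicate 1, fell inside the luminal range. None of the 7 was called in edgeR, where 1.17% of the 10446 genes were higher and 0.814% lower in basal cells. An unadjusted p under 0.05 was reached by 6 of the 7, and by 1733 of the 10446 genes. DESeq2 called 6 of the 7, and 1826 genes in all. With the basal and luminal libraries of one title code paired as a block, *Krt14* (adjusted p = 0.0303) and *Krt18* (adjusted p = 0.0460) were called. Without ACI E2 basal replicate 1, *Krt14*, *Krt17*, *Krt18* and *Krt19* were. The median over the 7 was 1.36, beside -0.04 over all genes.

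To describe how cleanly each library separated the lineages, the basal pair *Krt5* and *Krt14* in a luminal library was set against its mean in the matched basal libraries. In 25 of the 28 luminal libraries this share was under 5%. It was 0.507 to 0.873% at 4 weeks, 0.496 to 2.73% at 6 weeks and 0.875 to 2.56% in mature luminal cells of 9 weeks. LP divided by the sort, with 0.855 to 1.10% and 0.965 to 1.81% in WT and KO PNA+ libraries and 3.01 to 3.81% and 2.37 to 7.94% in WT and KO CD49b+ libraries. The 3 libraries above 5% were KO CD49b+ replicate 2 (7.94%), ACI E2 luminal replicate 2 (25.9%) and BN control luminal replicate 1 (25.2%). For the last 2, the matched basal libraries themselves held little of the pair in 1 of 2 and 1 of 1 cases, which raises the share.

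The myoepithelial genes *Acta2* and *Myh11*, taken the same way, gave 31.9% in KO CD49b+ replicate 2, 15.8% in BN control luminal replicate 1 and 4.02% in ACI E2 luminal replicate 2. In the last library the keratin share was thus more than that of the muscle genes, and it came mainly from *Krt5* (66.0% of the matched basal mean) rather than *Krt14* (13.8%). At 4 weeks *Acta2* and *Myh11* gave 0.0814 to 0.641%, and in WT CD49b+ libraries 9.91 to 11.1%.

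In the opposite direction, *Krt8* and *Krt18* together stood in basal libraries at 12.7 to 22.2% of the matched luminal mean at 4 weeks, 29.2 to 42.6% at 6 weeks and 29.6 to 58.6% at 9 weeks. Most of this was *Krt8*. Taken alone, *Krt8* gave 36.2 to 70.1% at 9 weeks and 20.9 to 32.6% at 4 weeks, and *Krt18* 11.2 to 31.6% and 3.08 to 7.73%, and the *Krt8* share exceeded the *Krt18* share in 20 of 20 basal libraries. The claudin gene *Cldn3*, a tight junction component of luminal cells, gave 7.31 to 20.0% at 9 weeks and 1.13 to 2.47% at 4 weeks, and *Epcam*, an adhesion gene common to epithelial cells, 30.1 to 47.6% and 16.9 to 35.7%. At 6 weeks *Krt8* gave 42.2 to 62.4% and *Epcam* 34.4 to 66.0%, within or above the ranges of 9 weeks. Basal libraries of 9 weeks thus held more *Krt18* and *Cldn3*, relative to their luminal libraries, than those of 4 and 6 weeks (4.43 to 8.35% and 0.0421 to 2.35% at 6 weeks). Whether basal cells made these transcripts or luminal cells were in the gate was not tested. In 3 basal libraries of the E2 experiment the pair was under 5%, at 0.391% in ACI E2 replicate 1, 2.17% in BN control replicate 1 and 3.03% in ACI control replicate 2.

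**Figure D2:**
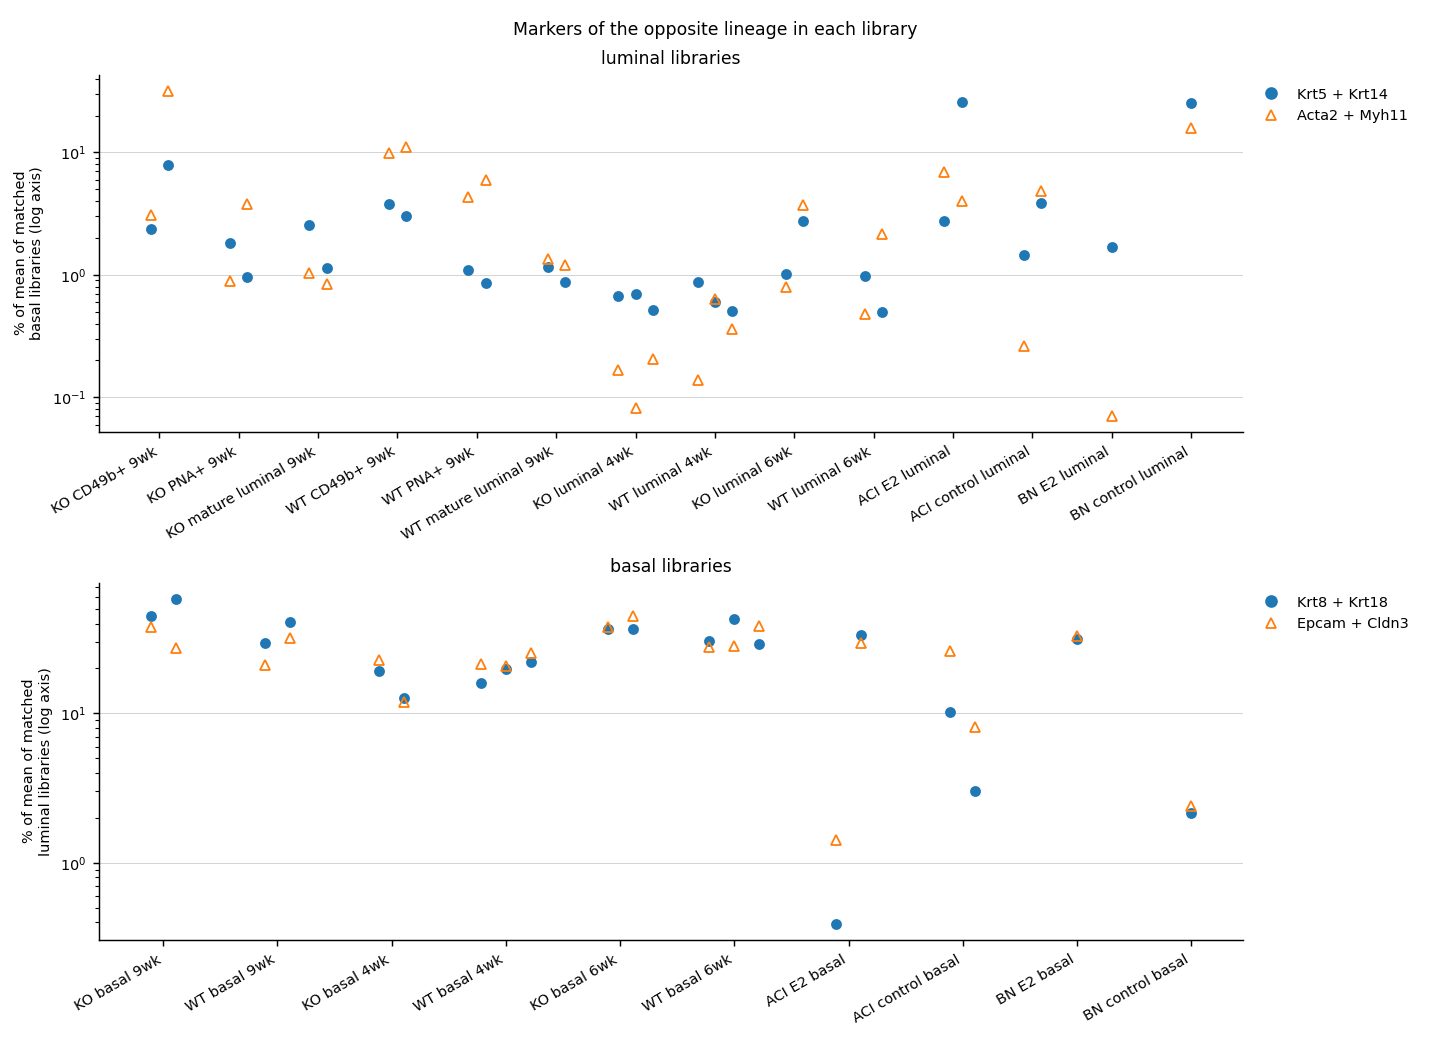
Keratins of the opposite lineage (filled circles) and 2 other markers of that lineage (open triangles) in each of the 28 luminal and 20 basal libraries, as a percentage of the mean of the matched libraries of the opposite lineage, on log axes. By the keratins, 25 of the 28 luminal libraries lie under 5%, and basal libraries lie between 12.7% and 58.6% except 4 of the E2 experiment.

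Whether loss of *Cdkn1b* changed the keratins was asked in 7 comparisons of KO against WT cells, and no keratin was called in any of them by edgeR. In LP of 9 weeks, where  3.4% of all genes were called, the largest differences were in *Krt17* and *Krt14*. *Krt17* was at 118 and 123 CPM in KO PNA+ and 181 and 955 CPM in KO CD49b+ libraries, against 58.1 and 64.3 CPM in WT PNA+ and 223 and 268 CPM in WT CD49b+ libraries (log2 fold change of 1.33 ± 0.63 (SE), adjusted p = 0.282). Within PNA+ cells the genotypes were apart, and within CD49b+ cells they overlapped. *Krt14* was at 167 and 78.3 CPM in KO PNA+ and 201 and 587 CPM in KO CD49b+ libraries, against 69.2 and 57.6 CPM in WT PNA+ and 223 and 200.2 CPM in WT CD49b+ libraries (log2 fold change of 1.13 ± 0.54 (SE), adjusted p = 0.288). The other 5 keratins differed by 0.00 to 0.46 in size. Both estimates leaned on KO CD49b+ replicate 2, without which they were 0.28 and 0.54, and the difference of *Krt5* went from 0.13 to -1.31.

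In basal cells of 9 weeks, *Krt17* was at 11449 and 12485 CPM in KO and 4947 and 7246 CPM in WT libraries, with no overlap. It was not called (log2 fold change of 1.21 ± 0.88 (SE), adjusted p = 0.730). The fit estimates the spread of a gene over all 9-week libraries, LP included, so this SE is not that of the basal libraries alone. *Krt18* was at 540.0 and 804 CPM in KO and 324 and 589 CPM in WT basal libraries, which overlapped (log2 fold change of 0.79 ± 0.31 (SE), adjusted p = 0.460). It was the 1 keratin with an unadjusted p under 0.05 in this comparison, in which 0.0546% of genes were called. In mature luminal cells (0.133% of genes called), *Krt14* was at 228 and 98.4 CPM in KO and 78.6 and 63.5 CPM in WT libraries (log2 fold change of 1.43 ± 0.77 (SE), adjusted p = 0.790), and none of the 7 had an unadjusted p under 0.05. The genotype difference in LP was also set against that in basal and in mature luminal cells. The differences of these differences ranged from -0.63 to 0.65 and from -0.30 to 0.39 over the 7 keratins, with a lowest adjusted p of 0.782 and 1.00. In these, 0% and 0% of genes were called, 926 and 224 had an unadjusted p under 0.05, and DESeq2 called 69 and 0.

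At 4 weeks the 7 keratins differed between genotypes by at most 0.57 on the log2 scale in basal cells and 0.44 in luminal cells, and no adjusted p was under 0.855. edgeR called 0% of genes in basal and 0% in luminal cells of this age (310 and 435 genes had an unadjusted p under 0.05, none of them a keratin of the 7), and DESeq2 called 2 and 0 genes. At 6 weeks *Krt5* and *Krt15* stood out. *Krt5* was at 1475 and 1498 CPM in KO and 364, 368 and 318 CPM in WT basal libraries (log2 fold change of 1.96 ± 0.52 (SE), adjusted p = 0.382). *Krt15* was at 4157 and 2175 CPM in KO and 468, 571 and 689.7 CPM in WT basal libraries (log2 fold change of 2.33 ± 0.52 (SE), adjusted p = 0.316). Both were apart between the genotypes. *Krt14* (3335 and 5133 against 2520.4, 2458 and 1753 CPM) was also apart, with a smaller difference (0.79 ± 0.57), and *Krt17* was not. Of the luminal keratins, *Krt19* was apart and higher in KO (498 and 323 against 168, 207 and 275 CPM, 0.79 ± 0.39), and *Krt18* apart and lower (118 and 171 against 215, 266 and 214 CPM, -0.82 ± 0.41), neither called.

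In luminal cells of 6 weeks *Krt5*, *Krt14* and *Krt15* were also higher in KO libraries, at much lower levels, without passing the test. *Krt15* was at 132 and 216 CPM in KO and 21.5 and 9.66 CPM in WT luminal libraries (log2 fold change of 3.68 ± 0.64 (SE), adjusted p = 0.121). *Krt5* was at 12.4 and 23.6 CPM in KO and 3.54 and 1.14 CPM in WT libraries (log2 fold change of 3.17 ± 0.64 (SE), adjusted p = 0.129). *Krt14* was at 45.3 and 133 CPM in KO and 21.9 and 11.7 CPM in WT libraries (log2 fold change of 2.66 ± 0.68 (SE), adjusted p = 0.145). For all 3, both KO libraries lay above both WT libraries. edgeR called 0% of genes in basal and 0% in luminal cells of 6 weeks, although 1072 and 1961 genes, 2 and 3 of the 7 keratins among them, had an unadjusted p under 0.05. DESeq2 called 414 genes in basal cells, *Krt15* among them (adjusted p = 0.0156), and 1410 in luminal cells, *Krt5*, *Krt14* and *Krt15* among them. Without KO luminal replicate 2 the luminal difference of *Krt14* was 1.28, and without KO luminal replicate 1 edgeR called all 3, with the remaining KO library taken to vary like the other groups.

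Basal genes other than keratins and markers of other cells moved with these differences. The 8 basal genes summed to 7536 and 8927 CPM in KO and 2590.1 to 3549.5 CPM in WT basal libraries of 6 weeks. *Tp63* was at 139.7 and 204 CPM in KO and 60.7, 62.4 and 16.2 CPM in WT basal libraries. The 6 fibroblast genes summed to 2331 to 3288 CPM in KO and 67.1 to 567 CPM in WT basal libraries, and 3 Schwann cell genes to 1310.4 to 2108 and 34.7 to 239.6 CPM. *Epcam* was at 1249 and 1477 CPM in KO and 2070.5, 2112 and 2892 CPM in WT basal libraries. *Cldn3* was at 0.626 to 35.0 CPM in all 5 of these libraries, against 878 to 1868 CPM in the 4 luminal ones. In the luminal libraries the 8 basal genes summed to 77 and 610.5 CPM in KO and 24.3 and 51.0 CPM in WT, with *Tp63* at 0.401 and 0 CPM in KO and 0 and 0 CPM in WT. Sums of endothelial (173 to 1422 against 0.303 to 8.90 CPM), fibroblast (117 to 3076 against 16.6 to 33.5 CPM) and leukocyte genes (102 to 337 against 2.43 to 12.6 CPM, 5 of 6 genes with a row) were higher in both KO than in both WT luminal libraries. The 4 adipocyte genes summed to 117 CPM in KO luminal replicate 1, 4.34 to 5.97 CPM in WT and 7006 CPM in KO luminal replicate 2, of which *Fabp4*, a gene also used by endothelial cells, made 7005 CPM, while *Adipoq* was at 0 there. The part of other cells in the keratin differences was not tested.

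**Figure D3:**
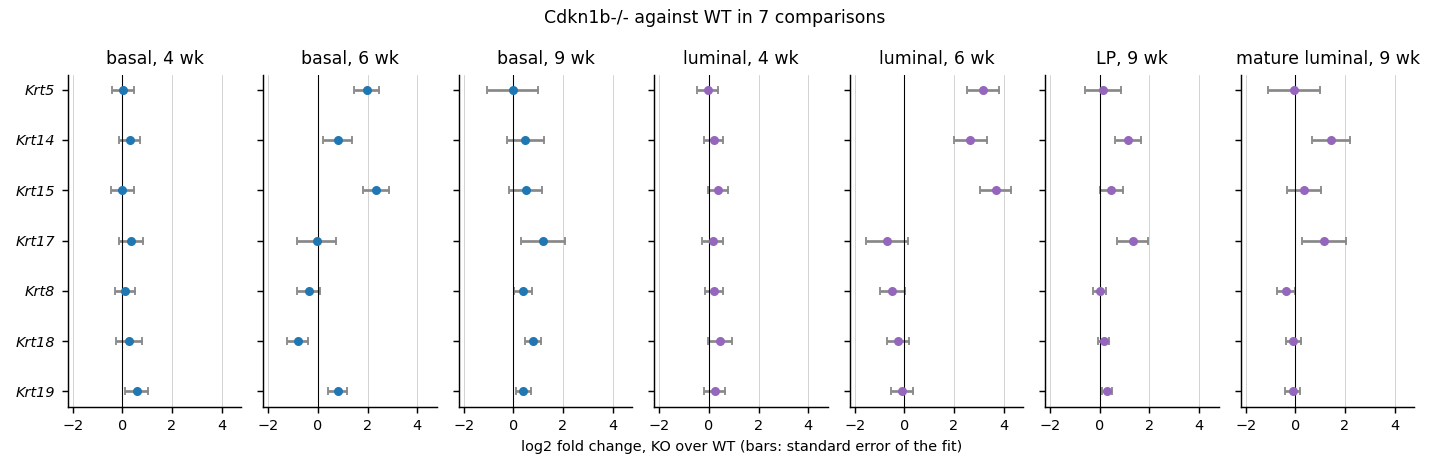
Difference of KO from WT cells on the log2 scale for 7 keratins in 7 comparisons, with standard errors of the edgeR fit. Most points lie within 1 of 0. *Krt5*, *Krt14* and *Krt15* in luminal cells of 6 weeks (2.66 to 3.68) and *Krt5* and *Krt15* in basal cells of 6 weeks (1.96 and 2.33) lie farthest out, and none passed an adjusted p of 0.05.

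The median difference over the 7 keratins was 0.27, 0.79 and 0.49 in basal cells of 4, 6 and 9 weeks, where the median over all genes was 0.02, 0.08 and 0.00. In luminal cells of 4 and 6 weeks it was 0.21 and -0.10, beside -0.10 and -0.01, and in LP and mature luminal cells of 9 weeks 0.28 and -0.06, beside 0.03 and 0.03. The comparisons of one age share a fit but no libraries.

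Between ages, *Krt15* and *Krt5* fell in WT basal cells, the only differences of basal keratins within a lineage that edgeR called. In WT basal cells, *Krt15* was at 4169, 3884 and 2468 CPM at 4 weeks and 468, 571 and 689.7 CPM at 6 weeks (log2 fold change of -2.43 ± 0.48 (SE), adjusted p = 0.00499), and *Krt5* at 1331, 1434 and 1152 CPM at 4 weeks and 364, 368 and 318 CPM at 6 weeks (log2 fold change of -1.74 ± 0.45 (SE), adjusted p = 0.0228). Neither gene overlapped between the ages. *Krt15* stayed called in every fit without 1 library, and *Krt5* lost its call without WT basal replicate 1 or 2 of 4 weeks or replicate 1 of 6 weeks, at an adjusted p of up to 0.0710. *Krt14* was also apart, at 5033, 3819 and 3597 CPM at 4 weeks and 2520.4, 2458 and 1753 CPM at 6 weeks, but was not called (log2 fold change of -0.73 ± 0.47 (SE), adjusted p = 0.321), and *Krt17* overlapped. 2 of the 7 were called lower at 6 weeks (5.68% of the 12572 genes) and 0 higher (4.82%), with a median of -0.73, beside 0.00 over all genes. The WT basal libraries of 6 weeks, which also enter the comparison with KO cells above, were lower in the 8 other basal genes as well, with a sum of 2590.1 to 3549.5 CPM against 9997 to 10814 CPM at 4 weeks. Their fibroblast sum was 67.1 to 567 CPM against 1199.9 to 6377 CPM at 4 weeks, and their Schwann cell sum 34.7 to 239.6 CPM against 409 to 1271 CPM. The part of other cells in this fall was not tested.

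In WT luminal cells *Krt15* was at 55.1, 52.6 and 40.1 CPM at 4 weeks and 21.5 and 9.66 CPM at 6 weeks, and *Krt5* at 7.88, 8.79 and 6.596 CPM at 4 weeks and 3.54 and 1.14 CPM at 6 weeks. Neither gene overlapped between the ages. Both were lower at 6 weeks (-1.68 ± 0.54 and -1.76 ± 0.55 on the log2 scale), without passing the test in edgeR (adjusted p of 0.0907 and 0.0840). 0 of the 7 were called by edgeR, where 1.19% of genes were called higher and 1.92% lower. An unadjusted p under 0.05 was reached by 2 of the 7, and by 2597 of the 12572 genes. DESeq2 called both keratins, among 1672 genes. The median over the 7 was -0.68, beside -0.13 over all genes. In KO luminal cells both genes were higher at 6 weeks, *Krt15* at 45.3, 81.5 and 42.3 CPM at 4 weeks and 132 and 216 CPM at 6 weeks. The study gives both of these ages as ranges. Titles of these libraries also carry codes that end in numbers, whose meaning the labels do not give. At 6 weeks these numbers differ between the KO rats but not between the WT rats. Batch and age cannot be told apart.

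**Figure D4:**
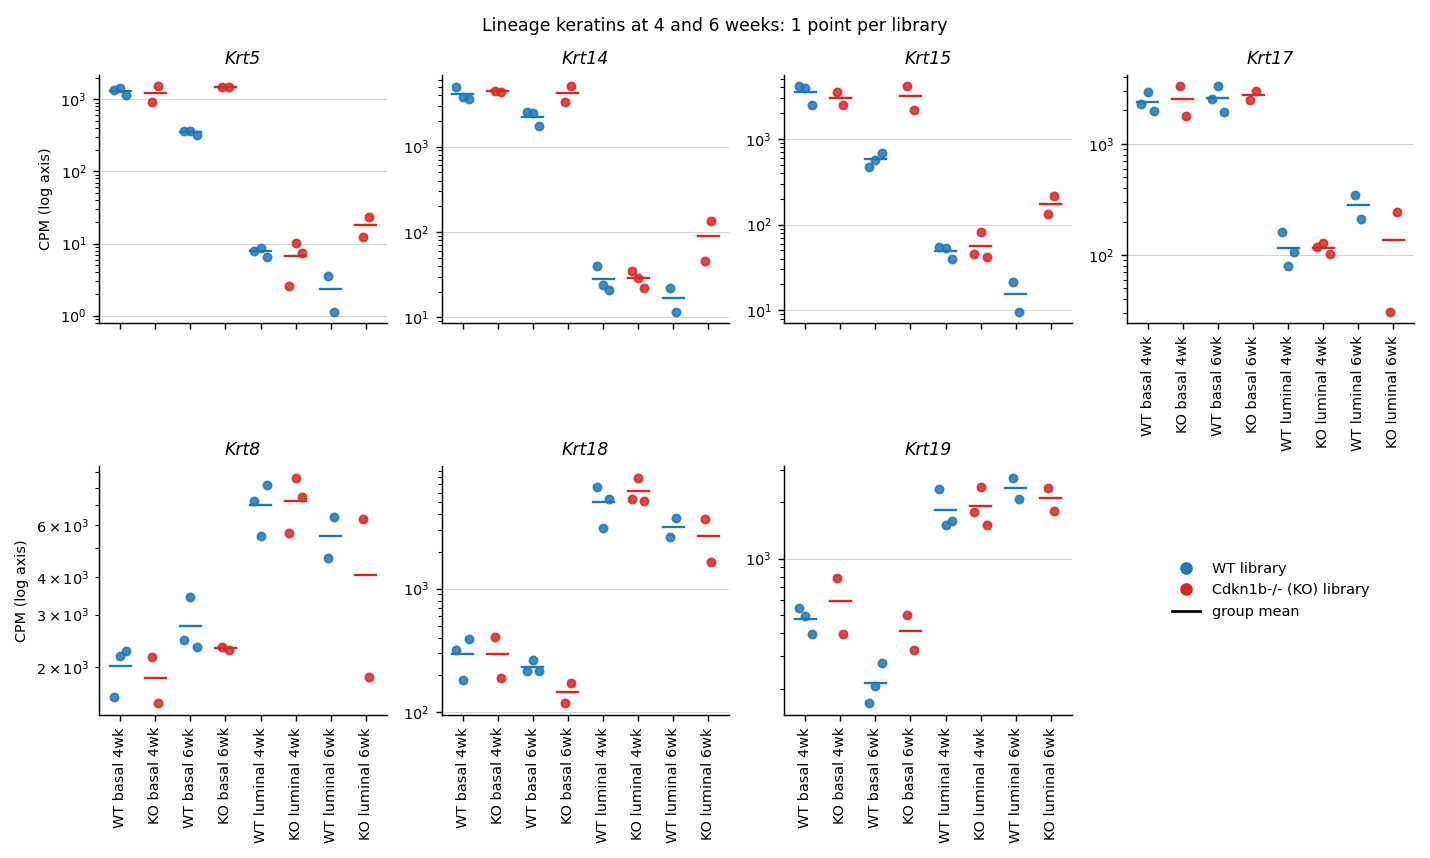
Levels of 7 keratins at 4 and 6 weeks in CPM on log axes that differ between panels, with 1 point per library, bars at group means, WT in blue and KO in red. In basal cells, *Krt5* and *Krt15* of WT libraries of 6 weeks (318 to 368 and 468 to 690 CPM) lie below every other basal group shown.

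In the E2 experiment the widest gap between E2 and control libraries was that of *Krt15* and *Krt5* in ACI luminal cells, although it did not pass the test. *Krt15* was at 44.6 and 80.5 CPM in control and 957 and 2655 CPM in E2 libraries, with a group mean of 62.6 ± 25.4 (SD, n = 2) against 1806 ± 1200.4 (SD, n = 2). *Krt5* was at 0.908 and 16.6 CPM in control and 64.2 and 473 CPM in E2 libraries, again with no overlap. In BN luminal cells, with 1 library each and so no replicate check, both were lower with E2, *Krt15* at 26.8 against 119 CPM and *Krt5* at 6.21 against 56.7 CPM. In the fit over both strains neither was called (log2 fold change of 3.14 ± 1.89 (SE), adjusted p = 0.999, and 3.31 ± 2.77 for *Krt5*). *Krt17* had the lowest unadjusted p of the 7 (0.0671, log2 fold change of 1.81 ± 0.81), and *Krt8*, *Krt18* and *Krt19* were lower with E2 by 0.73 to 1.06, none called. The level of *Krt15* in ACI E2 luminal replicate 2 was near that of basal cells, with *Tp63* at 12.5 CPM, while in replicate 1 *Tp63* was at 0 and the 6 fibroblast genes summed to 6689 CPM. The part of these in the response was not tested.

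In basal cells, libraries of one group differed as much as E2 and control libraries did. ACI E2 basal replicate 1 held 124 CPM of *Krt5*, 56.3 CPM of *Krt14* and 28.1 CPM of *Krt8*, and replicate 2 held 1311, 4701 and 2151 CPM. ACI control basal replicate 2 and BN control basal replicate 1 were also low, with 729 and 303 CPM of *Krt14*, against 2611 and 3057 CPM in ACI control replicate 1 and BN E2. The 6 fibroblast genes summed to 16612 CPM in BN E2 basal replicate 1, the highest of any library, and to 1522 to 2749 CPM in ACI control. *Myh11* was not lower in the 2 libraries low in *Krt14*, at 4028 and 3087 CPM, against 3655 and 3012 CPM. Their sums of 12 luminal genes that are no keratins were 345 and 137 CPM and their *Fabp4* 392 and 2073 CPM, with 1338 CPM in ACI E2 basal replicate 1. The part of other *Myh11*-expressing cells in these libraries was not tested.

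**Figure D5:**
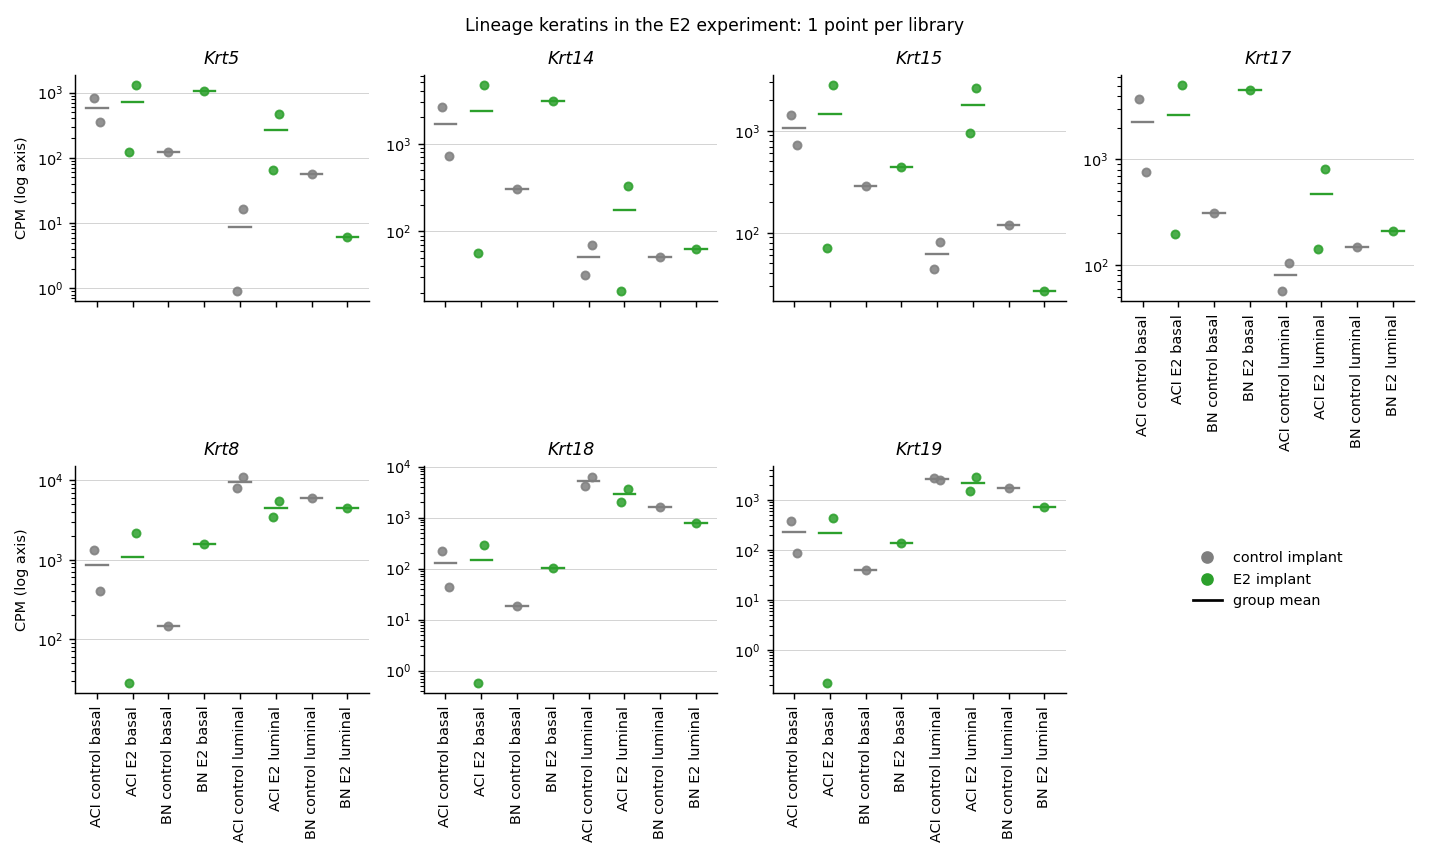
Levels of 7 keratins in the E2 experiment in CPM on log axes that differ between panels, with 1 point per library, bars at group means, control in grey and E2 in green. *Krt5* and *Krt15* are higher in ACI E2 luminal cells (64.2 and 473 CPM, and 957 and 2655 CPM), and ACI E2 basal replicate 1 lies below all other libraries for *Krt8*, *Krt18* and *Krt19*.

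No keratin passed the test for E2 or for strain in either lineage, and edgeR called 0% of 11499 genes for E2 and 0% for strain in luminal cells, and 0% of 11288 genes for E2 and 0% for strain in basal cells. At an unadjusted p under 0.05 there were 468, 527, 181 and 89 genes, with 0 of the 7 keratins in each, and DESeq2 called 177, 465, 106 and 19 genes, again with none of the 7. For E2, the median over the 7 was 1.24 in luminal and 1.03 in basal cells, beside 0.01 and -0.18 over all genes. For ACI against BN it was 0.26 and 0.67, beside 0.03 and 0.02. *Krt18* was the keratin nearest to a strain difference in luminal cells, at 4132 and 6348 CPM in ACI control, 2033 and 3654 CPM in ACI E2, 1637 CPM in BN control and 798 CPM in BN E2 libraries (log2 fold change of 1.28 ± 0.56 (SE), adjusted p = 0.932). With 1 library per BN group, the fit takes the spread of BN from the other groups.

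Ordered by group mean over all 24 groups, each basal keratin was highest in WT or KO basal cells of 9 weeks. For *Krt15*, WT basal cells of 4 weeks (3507 CPM) and KO basal cells of 6 weeks (3166 CPM) came before WT basal cells of 9 weeks (3149 CPM). *Krt5* was highest in WT basal cells of 9 weeks (2681 ± 734 (SD, n = 2) CPM), followed by KO basal cells of 9 weeks (2194 ± 144 (SD, n = 2) CPM), and it was lowest in WT luminal cells of 6 weeks (2.34 ± 1.70 (SD, n = 2) CPM). *Krt14* (7574 ± 1130.1 (SD, n = 2) CPM), *Krt15* (3678 ± 1425 (SD, n = 2) CPM) and *Krt17* (11967 ± 732 (SD, n = 2) CPM) were highest in KO basal cells of 9 weeks. For *Krt15*, luminal cells of E2-treated ACI rats (1806 ± 1200.4 (SD, n = 2) CPM) came before 5 groups of basal cells. *Krt8* was highest in WT mature luminal cells of 9 weeks (10276 ± 2912 (SD, n = 2) CPM), *Krt18* in KO luminal cells of 4 weeks (6144 ± 1583 (SD, n = 3) CPM) and *Krt19* in ACI control luminal cells (2572 ± 167 (SD, n = 2) CPM), and all 3 were lowest in BN control basal cells.

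Of the 23 steps between neighbouring groups in this order, 18 overlapped in their libraries for *Krt5*, 18 for *Krt14*, 16 for *Krt15*, 17 for *Krt17*, 19 for *Krt8*, 20 for *Krt18* and 19 for *Krt19*. No gene was at 0 counts in any library, and the lowest count of a keratin was 5, of *Krt19* in ACI E2 basal replicate 1. Neighbours in an order of means are close by construction and the groups hold few libraries, so this overlap does not show that groups are alike. The order is a description.

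The genes whose levels were most alike to each keratin were sought by Pearson's correlation of log2(CPM + 1) over the 48 libraries, among 9297 genes with a mean above 2. The libraries share lineages and experiments, so these values are a description. *Krt5* was most like *Cxcl14* (r = 0.963), *Igfbp2* (r = 0.954) and *Krt15* (r = 0.943), and *Krt15* most like *Krt5* (r = 0.943), *Ctnnd2* (r = 0.918) and *Osr1* (r = 0.914). *Krt14* was most like *Pdpn* (r = 0.965), *Igfbp2* (r = 0.958) and *Fermt1* (r = 0.956), and *Krt17* most like *Wnt10a* (r = 0.940), *Phlda3* (r = 0.931) and *Krt14* (r = 0.931). *Pdpn* encodes the membrane protein podoplanin, *Fermt1* the integrin adaptor kindlin-1 and *Wnt10a* a Wnt ligand. On the luminal side, *Krt8* was most like *Cd24* (r = 0.937), *Lsr* (r = 0.934) and *Krt19* (r = 0.926), *Krt18* most like *Krt19* (r = 0.946), *Plscr1* (r = 0.934) and *Clu* (r = 0.926), and *Krt19* most like *Krt18* (r = 0.946), *Stap2* (r = 0.929) and *Krt8* (r = 0.926). *Cd24* encodes one of the surface markers by which the cells were sorted.

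Among the 38 other keratin symbols in the tables, 9 reached 10 CPM in some library (*Krt1*, *Krt10*, *Krt16*, *Krt23*, *Krt39*, *Krt42*, *Krt71*, *Krt75* and *Krt80*). In basal against mature luminal cells of 9 weeks, 10 of the 15 that were tested rose and 2 fell, where 20.4% and 18.4% of all genes did (median 2.14, beside -0.04 over all genes). *Krt42*, a type I keratin, rose by 5.74 ± 0.60 on the log2 scale, and *Krt16*, a keratin of stressed epidermis, by 4.32 ± 0.61. *Krt23* was at 410.1 to 824 CPM in the 4 basal libraries of 9 weeks and rose by 1.46 ± 0.43, and *Krt80* fell (-1.97 ± 0.66). Reads shared between close type I keratins such as *Krt14*, *Krt16*, *Krt17* and *Krt42* could have been lost or assigned to one of them, so differences among these are uncertain. At 4 weeks 7 of 13 rose and 1 fell (20.3% and 14.8% of all genes), and at 6 weeks 1 of 11 (*Krt42*, 5.64 ± 0.59) rose (3.49% of all genes). In the E2 experiment 0 of 6 were called by edgeR. Calls of *Krt39* and *Krt81* in KO against WT LP, and of these and *Krt24* in LP against mature luminal cells, are not read here. *Krt39* was at 0.0328 to 0.354 CPM in LP and 0.403 to 1.11 CPM in mature luminal libraries, against 1.89 to 3.55 CPM in basal libraries, and *Krt24* and *Krt81* reached 10 CPM in no library. *Krt23* rose in WT luminal cells between 4 and 6 weeks (2.92 ± 0.55), 1 of 16, where 1.19% of all genes did. In the other comparisons none was called.

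Genes that anchor keratin filaments at desmosomes and hemidesmosomes, a list of 18 of which 14 had a row and 13 were tested, divided between the lineages. In basal against mature luminal cells of 9 weeks 6 rose and 3 fell, where 20.4% and 18.4% of all genes did (median 0.60, beside -0.04 over all genes). *Dsc3* (6.75 ± 0.98) and *Dsg3* (5.16 ± 0.83), desmosomal cadherins of stratified epithelium, *Pkp1* (5.28 ± 0.57), a plakophilin, *Col17a1* (6.25 ± 0.93), a hemidesmosome collagen, and the linker *Plec* (1.41 ± 0.28) and integrin *Itga6* (1.20 ± 0.28) rose. *Pkp2* (-3.20 ± 0.26), another plakophilin, and the plakins *Evpl* (-2.23 ± 0.23) and *Ppl* (-2.11 ± 0.52) fell. At 4 weeks 4 rose and 3 fell (20.3% and 14.8% of all genes), with a median of 0.04, beside -0.01 over all genes. At 6 weeks 2 rose (*Col17a1* and *Dsc3*) and 2 fell (*Pkp2* and *Ppl*), against 3.49% and 2.16% of all genes (median 0.68, beside 0.08). In the E2 experiment, where none of the 7 keratins was called by edgeR, *Col17a1* rose (6.99 ± 1.38) and *Pkp2* fell (-5.52 ± 1.09), 1 of 13 each (1.17% and 0.814% of all genes, medians 0.26 and -0.04). *Dsc3* also rose in LP against mature luminal cells (2.59 ± 0.81), 1 of 13, where 11.7% of all genes did (medians 0.35 and -0.07). With age, *Pkp1* (2.54 ± 0.63) and *Ppl* (2.27 ± 0.63) rose in WT basal cells and *Dsc3* (7.14 ± 1.72) and *Plec* (1.54 ± 0.40) in WT luminal cells, 2 of 13 at each, where 4.82% and 1.19% of all genes rose. The medians were 0.22 and 0.69, beside 0.00 and -0.13 over all genes. No anchoring gene among those tested, 12 for E2 and strain in luminal cells and 13 elsewhere, was called in a comparison of KO with WT cells, of PNA+ with CD49b+ cells, of E2 or of strain. Binding of the progesterone receptor near the keratin genes was not analysed here.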

How the data were processed

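Basal, luminal and luminal progenitor cells of rat mammary glands were sorted and their RNA sequenced (low-input SMARTer libraries, single-end reads). The authors aligned reads to rn6 with STAR 2.5.1b and counted them per RefSeq gene with HTSeq, and the deposited values are raw counts per gene, in which reads of close paralogs may be lost or misassigned. Rows for unassigned reads, 47.1 to 77.0% of a library, were left out. CPM used the sum of the 17356 gene counts, which was 7985619 to 33859550. Tests used edgeR 4.0.16 (TMM, filterByExpr with a minimum count of 10, quasi-likelihood F test, Benjamini-Hochberg adjustment over all genes tested, threshold 0.05) in R 4.3.3, with SE taken as the log2 fold change over the root of F. DESeq2 1.42.0, library totals, no filter, leaving out each library and replicate blocks were tried as alternatives, and the fits were tested on simulated data. The text names the 7 keratins in every comparison, the 3 genes most alike to each, and called genes of the lists of other keratins and anchoring genes. These members and lists were chosen with earlier results of these data known. Single marker genes were named after their values were seen.

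Pairing was checked by correlating deviations from group means. Title numbers paired 9-week libraries within a genotype (24 of 24 pairs above 0.1, r from 0.360 to 0.931). With 2 libraries per group the deviations mirror each other, so each r counts for both numbers. Across genotypes, libraries of the same number had negative r (-0.452 to -0.165 within a population, -0.547 to -0.0493 between populations). Those of unlike number thus had the same r with a positive sign. The source of this likeness across genotypes was not tested. Title codes paired basal with luminal libraries at 4 weeks (5 of 5) and in the E2 experiment (4 of 4, 0.155 to 0.205), and in 1 of 4 pairs at 6 weeks (0.00636 to 0.116). In the E2 experiment, and in KO libraries of 6 weeks, each r again counts for both libraries of a group. ChIP-seq peak files and gene positions on rn6 were not used here.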

Additional observations from a re-analysis of the deposited data

Results flagged for a closer look

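KO CD49b+ replicate 2 lay far above the other 3 KO LP libraries for 3 basal keratins by Dixon's test, at 188 CPM of *Krt5*, 283 CPM of *Krt15* and 955 CPM of *Krt17*. Chance singles out about 1 group in 20 by this test where the libraries of a group are alike, a rate that does not hold here, since these 4 libraries are 2 PNA+ and 2 CD49b+ ones and the genes are correlated. The same library had the highest sums of the 8 basal genes and the 7 endothelial genes among the LP libraries, and the part of these cells was not tested.

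In 9 of 126 comparisons of a keratin between 2 contrasts, every library moved one way in the first and the opposite way in the second. The share of all genes that did so was not computed, and groups of 1 library cannot overlap, so this count is not read as a trait of the keratins. These differences were not tested, and they are given as the first change minus the second on the log2 scale of CPM. Between 4 and 6 weeks, *Krt5* (-3.15) and *Krt15* (-3.29) were lower at 6 weeks in WT and higher in KO luminal cells. With E2, *Krt5* (8.13) and *Krt15* (6.998) were higher in ACI and lower in BN luminal cells, with 1 library per BN group. In BN rats, *Krt5* (6.30), *Krt15* (2.78), *Krt8* (3.82), *Krt18* (3.49) and *Krt19* (3.06) were higher with E2 in basal and lower in luminal cells, again with 1 library per group, and BN control basal cells had the lowest mean of the 24 groups for *Krt8*, *Krt18* and *Krt19*.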

How the results depend on the processing

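Of 25 called keratin values, 5 lost their call under at least 1 alternative and 0 changed direction. The other 20 were counted as kept, also where an alternative gave no adjusted p, so not all of them were called by DESeq2. Of 122 uncalled values, 58 changed direction and 16 were called under at least 1 alternative. In the next sentences, up to the replicate block, numbers in brackets count all genes called in the same fit. Library totals in place of TMM left 1 keratin called in LP against mature luminal cells (3010). Without the filter, 3 were called between lineages in the E2 experiment (287) and 2 between genotypes in luminal cells of 6 weeks (54). DESeq2 called 6 between lineages in the E2 experiment (1826) and 1 and 3 between genotypes in basal and luminal cells of 6 weeks (414 and 1410). It called 3 between PNA+ and CD49b+ cells (45) and 2 between ages in WT luminal cells (1672). In basal against mature luminal cells of 9 weeks it called 6 in place of 7 (5415). Between ages in WT basal cells it called 3 in place of 2 (2653). The replicate block called 2 between lineages in the E2 experiment (280). Neither it nor the block of genotype and number, chosen after seeing the data, changed another count of keratins. Leaving out 1 library gave 0 to 3 called in LP against mature luminal cells, 0 to 4 between lineages in the E2 experiment, 0 to 3 between genotypes in luminal cells of 6 weeks, and 1 to 3 and 0 to 2 between ages in WT basal and luminal cells, where a group left with 1 library is assumed to vary like the others. The cause of these changes was not tested. With all 4 basal keratins in place of *Krt5* and *Krt14*, the median cross-lineage share was 1.67% in place of 0.636% in luminal libraries of 4 weeks and 4.68% in place of 0.995% at 6 weeks. TMM factors of 0.741 to 1.27 moved 120 of 168 group means by under 1 SD, and 28 of the 168 are of 1 library and have no SD. The lowest count of a keratin was 5, of *Krt19* in ACI E2 basal replicate 1, whose level there rests on few counts.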
